A study of Mus musculus with 24 samples.

Results

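The transforming growth factor beta (Tgf-beta) and activin signalling genes examined here were 10 genes: Tgfb1, Tgfb2, Tgfb3, Inhba, Fst, Ltbp1, Tgfbr1, Tgfbr2, Tgfbr3 and Tgfbi. The set was chosen by the measured genotype difference of Tgfb2 in these arrays, with the other 9 added for their place in its pathway, out of the 19937 genes that had a probe set with exactly 1 gene symbol on Affymetrix Mouse Gene 1.0 ST arrays. Each of the 10 genes had 1 such probe set. RNA came from hindlimb buds, left and right together, of stage-matched E10.5 mouse embryos, with 1 array for each of 12 wild type and 12 Nipbl+/- embryos. Nipbl+/- embryos carry a single functional copy of Nipbl, which encodes the protein that loads cohesin onto chromosomes. The mice were of the RRS strain, and the mutation is carried in the germline, so that every cell of a mutant embryo has it. The question was whether a lower level of Tgfb2 in mutant hindlimb buds is shared by the other genes of its pathway. Because of that choice, the difference of Tgfb2 is given below as a description and without a test.

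Tgf-beta ligands are secreted in a latent form that is held in the extracellular matrix by latency proteins and must be released before it can bind its receptors. Released ligand brings together a type II and a type I receptor kinase, and the type I receptor phosphorylates Smad2 and Smad3, which join Smad4 and enter the nucleus. Activins use other receptors but the same Smads, and follistatin, the product of Fst, binds activins and keeps them from their receptors. In the limb bud these signals are known for their parts in cartilage condensation, tendon formation and the shaping of the digits.

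Nipbl itself matched the genotype labels. Wild type embryos had a log2 intensity of 10.52 ± 0.12 (SD, n = 12) and mutants one of 9.86 ± 0.12 (SD, n = 12), a ratio of 0.630, and the ranges of 10.32 to 10.72 and 9.54 to 9.97 did not overlap. The hindlimb genes Tbx4 and Pitx1 had mean log2 intensities of 11.71 and 11.54 in wild type embryos. The forelimb gene Tbx5, at 5.92, was below the dim reference of 6.31, which is the 95th percentile of the mean level of 1027 olfactory receptor genes. Array medians lay between 7.24 and 7.39. Wild type embryo 3 and mutant embryos 2 and 9 had array weights under 0.5, that is, probe sets that fitted their group less well than on other arrays. By Xist against Y-linked genes, 8 wild type and 3 mutant embryos had the female pattern, and in wild type embryo 3 the log2 difference between Xist and these genes was -1.17, outside the range of -4.41 to -2.56 in the other embryos with the male pattern. Over all genes, 0.813% differed between genotypes at an adjusted p under 0.05 (limma, Benjamini-Hochberg), 0.527% lower and 0.286% higher in mutants, and the median log2 difference was -0.0049. At an unadjusted p under 0.05, 9.26% of genes differed, 5.14% lower and 4.13% higher.

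Among the ligands, Tgfb2 was lower in mutant hindlimb buds while neither Tgfb1 nor Tgfb3 passed the test. The log2 intensity of Tgfb2 was 8.29 at the lowest, 8.64 at the median and 9.22 at the highest in wild type embryos, and 7.68, 8.06 and 8.71 in mutant embryos. Of the mutants, 9 lay below the lowest wild type embryo, 10 lay below the wild type mean, and 5 wild type embryos lay above the highest mutant. The groups overlapped through mutant embryos 1 and 12, both at 8.71, and through mutant embryo 4 at 8.30. Nipbl in mutant embryos 1 and 12 was 9.93 and 9.73, within the range of the other mutants. The group means were 8.69 ± 0.26 (SD, n = 12) and 8.10 ± 0.34 (SD, n = 12), a log2 difference of -0.59 (SE 0.113) and a ratio of 0.663. Without the 3 arrays of low weight the difference was -0.51, and with sex as a covariate -0.58. In RNA from whole buds, fewer cells that express a gene and less RNA per cell cannot be told apart.

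Tgfb1, which encodes the founding ligand of the family, was over the wild type mean in 11 of 12 mutants without passing the test, and its groups overlapped. Its log2 intensity ran from 8.47 through a median of 8.62 to 8.79 in wild type embryos and from 8.54 through 8.64 to 8.90 in mutants. The log2 difference was 0.058 (SE 0.042, 95% interval -0.03 to 0.14, adjusted p = 0.758, limma). Tgfb3, the ligand best known from palate closure, ran from 8.54 through 8.98 to 9.16 in wild type embryos and from 8.53 through 8.90 to 9.18 in mutants. Both genotypes thus covered the same range, and the log2 difference was -0.085 (SE 0.076, 95% interval -0.24 to 0.07, adjusted p = 0.842). Inhba, which encodes the subunit of activin A, averaged 6.20 ± 0.12 (SD, n = 12) on the log2 scale in wild type embryos and 6.18 ± 0.19 (SD, n = 12) in mutants, both below the dim reference. Its log2 difference of -0.013 (95% interval -0.14 to 0.11, adjusted p = 0.987) therefore comes from a probe set within the range of levels of olfactory receptor genes, below their 95th percentile.

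**Figure D1:**
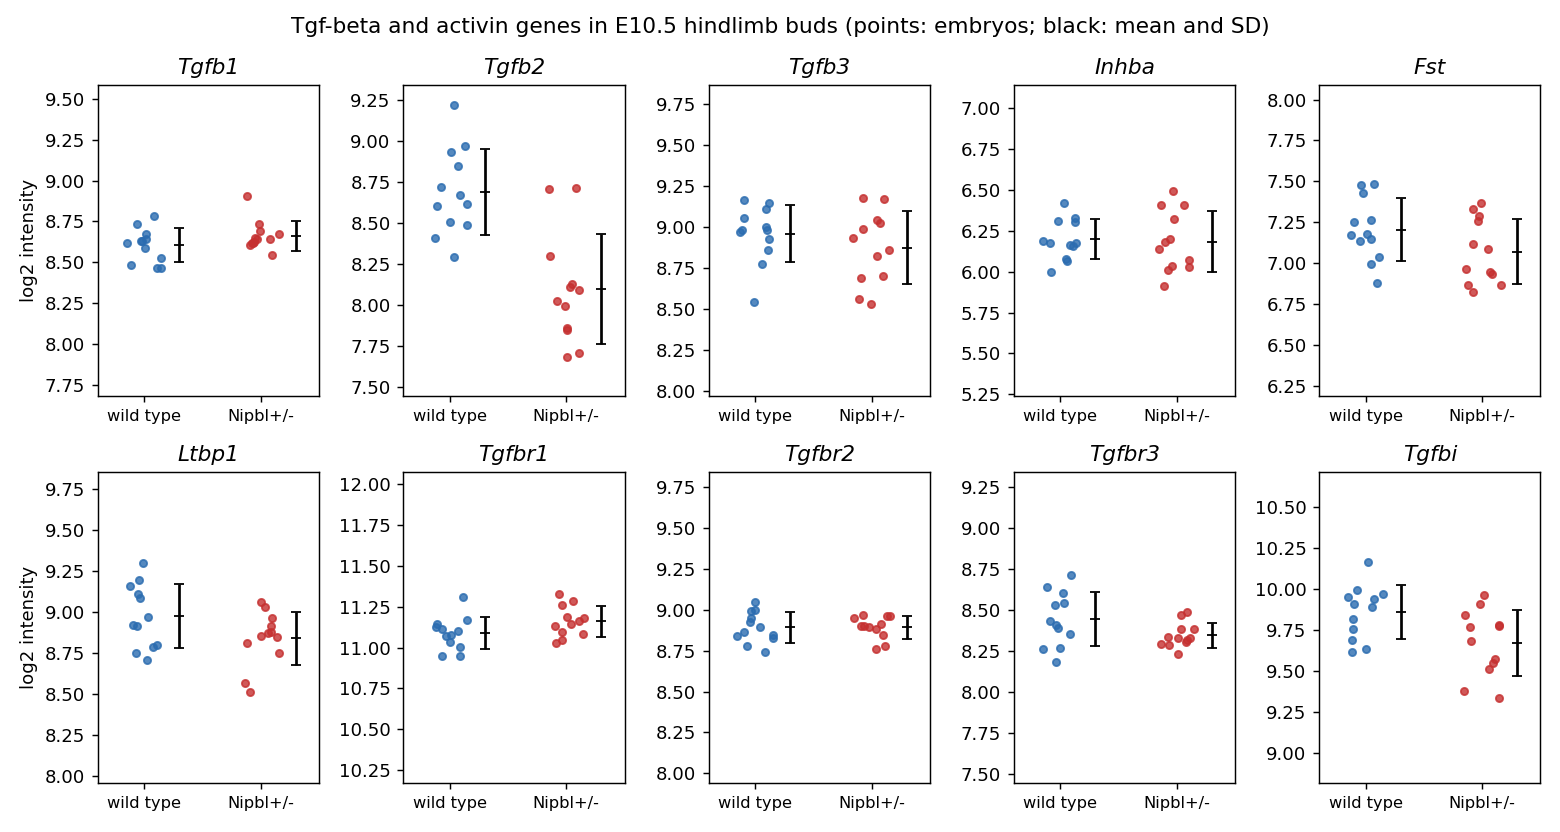
Log2 intensity (y axis of each panel) of the 10 genes in wild type (blue) and Nipbl+/- (red) hindlimb buds. Each point is 1 embryo, the black marks are the mean and SD of 12 embryos, and all panels span the same number of log2 units. For Tgfb2, 9 of 12 mutants lie below every wild type embryo, with mutants 1 and 12 at 8.71 inside the wild type range, while in the other 9 panels the groups overlap.

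To set side by side the ligand genes with the lowest and the highest log2 difference, the 250 bases before the transcription start are shown, from the RefSeq promoter table of GRCm38.p6. For Tgfb2 these are chr1:186705990-186706239 on the minus strand and for Tgfb1 chr7:25686752-25687001 on the plus strand, both written 5′ to 3′ in the direction of transcription. Capitals mark the TATA box motif TATAAA and the E-box CACGTG, which were searched on both strands and do not overlap.
Tgfb2: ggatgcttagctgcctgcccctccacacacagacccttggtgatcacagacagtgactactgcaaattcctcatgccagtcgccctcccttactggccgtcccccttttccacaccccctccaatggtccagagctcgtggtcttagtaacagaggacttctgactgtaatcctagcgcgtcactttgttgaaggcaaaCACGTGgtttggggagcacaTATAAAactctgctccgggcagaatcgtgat
Tgfb1: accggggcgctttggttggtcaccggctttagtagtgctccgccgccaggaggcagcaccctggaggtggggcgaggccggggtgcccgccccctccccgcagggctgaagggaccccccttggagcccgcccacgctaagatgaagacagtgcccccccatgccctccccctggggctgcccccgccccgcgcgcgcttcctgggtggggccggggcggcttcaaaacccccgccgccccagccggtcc
In Tgfb2, TATAAA began 31 bases and CACGTG 51 bases before the start. The Smad-binding letters CAGAC, searched on both strands and left in lower case, began 221 and 204 bases before it. The Tgfb1 sequence held none of the 3 motifs, and its GC content was 75.2% against 53.6% for Tgfb2. Of 32851 mouse promoters of the same length, 12.4% held TATAAA, 6.02% CACGTG and 42.2% CAGAC, with a median GC content of 52.4%. For 7 of the 10 genes, with 9 promoters, the table had an entry. TATAAA was found in Tgfb2 and Inhba, CACGTG in Tgfb2, and CAGAC in Tgfb2, Tgfbr1, Tgfbr2, Ltbp1 and Tgfbi. Tgfb3, Tgfbr3 and Fst had no entry. A match of these letters describes the sequence and does not show that a factor binds there.

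Neither of the genes whose products hold ligands back passed the test. Ltbp1 encodes the protein that binds latent Tgf-beta and anchors it in the matrix. Its log2 intensity ran from 8.71 through a median of 8.95 to 9.30 in wild type embryos and from 8.52 through 8.86 to 9.06 in mutants. Of the mutants, 10 of 12 lay below the wild type mean, but only 2 lay below the lowest wild type embryo. The log2 difference was -0.14 (SE 0.070, 95% interval -0.28 to 0.01, adjusted p = 0.579, limma), a ratio of 0.910. For Fst, the values ran from 6.88 through 7.18 to 7.49 in wild type embryos and from 6.83 through 7.03 to 7.37 in mutants. The ranges overlapped, with 3 mutants below the lowest wild type embryo and 3 wild type embryos above the highest mutant. The log2 difference was -0.13 (SE 0.074, 95% interval -0.29 to 0.02, adjusted p = 0.632) and 8 of 12 mutants below the wild type mean.

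None of the receptor genes passed the test. Tgfbr1 encodes the type I receptor kinase of the Tgf-beta ligands, and it averaged 11.09 ± 0.10 (SD, n = 12) on the log2 scale in wild type embryos and 11.16 ± 0.09 (SD, n = 12) in mutants. The log2 difference was 0.073 (SE 0.042, 95% interval -0.01 to 0.16, adjusted p = 0.647), with 9 of 12 mutants above the wild type mean. Tgfbr2, which encodes the type II receptor that binds ligand first, was at 8.89 ± 0.09 (SD, n = 12) and 8.89 ± 0.07 (SD, n = 12). The 95% interval of its log2 difference was -0.08 to 0.08 (adjusted p = 0.998), and the sign of its difference turned under several other settings, as did that of Inhba. Tgfbr3 encodes betaglycan, a co-receptor without a kinase that is known for presenting Tgfb2 ligand to the type II receptor. Its values ran from 8.18 through 8.42 to 8.72 in wild type embryos and from 8.23 through 8.33 to 8.49 in mutants, so that the mutants lay inside the lower part of the wild type range. The log2 difference was -0.098 (SE 0.052, 95% interval -0.20 to 0.01, adjusted p = 0.603), with 10 of 12 mutants below the wild type mean.

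Tgfbi, which encodes a secreted matrix protein named for its induction by Tgf-beta, had the lowest log2 difference after Tgfb2. Its log2 intensity ran from 9.61 through a median of 9.90 to 10.16 in wild type embryos and from 9.33 through 9.72 to 9.96 in mutants. Of the mutants, 5 lay below the lowest wild type embryo and 3 wild type embryos lay above the highest mutant. The log2 difference was -0.19 (SE 0.071, 95% interval -0.33 to -0.04), a ratio of 0.877, with 10 of 12 mutants below the wild type mean. It did not pass the adjusted threshold (adjusted p = 0.311, unadjusted p = 0.0128, limma). Without the 3 wild type arrays of high Postn described below, it was -0.13 (adjusted p = 0.738).

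Of the 9 genes other than Tgfb2, 0 were called at an adjusted p under 0.05, beside 0.813% of all genes, and 1, Tgfbi, had an unadjusted p under 0.05, beside 9.26% of all genes. By sign, 6 were lower and 3 higher in mutants, with a median log2 difference of -0.085 beside -0.0049 over all genes. Their 95% intervals reached from -0.33 at the lowest to 0.16 at the highest, and 0 of the 9 held the log2 difference of Tgfb2. Inhba, 1 of the 9, was below the dim reference, which limits what its interval can show. Tgfb2 was chosen by its difference, so it was likely from the start that genes not chosen in this way would fall less. The 95% interval of Tgfb2, which takes no account of that choice, was -0.83 to -0.36. Its upper end was close to -0.33, the lower end for Tgfbi. The SEs of the 9 genes, 0.037 to 0.076 on the log2 scale, leave smaller differences undecided.

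**Figure D2:**
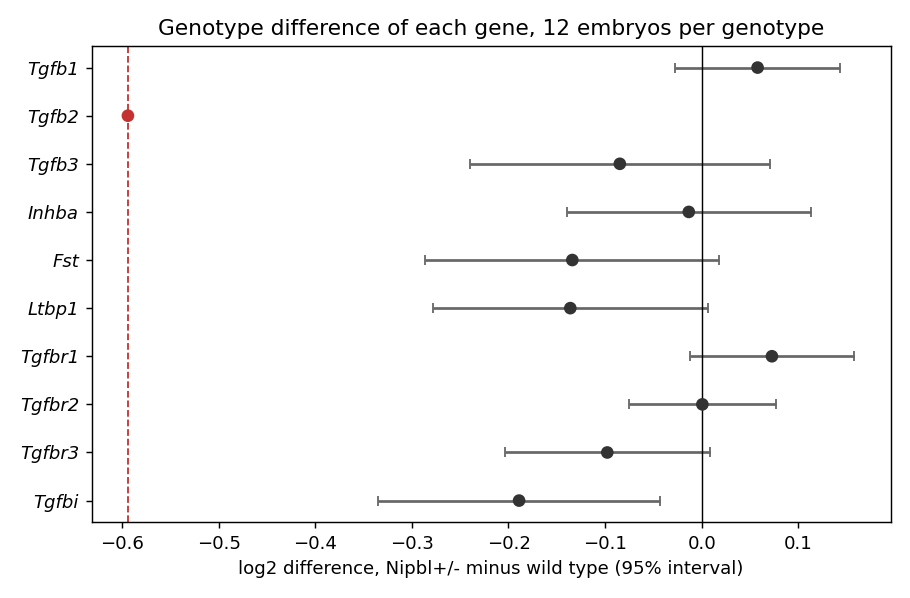
Log2 difference, Nipbl+/- minus wild type (x axis), of each of the 10 genes (y axis), with 12 embryos per genotype. Points are the estimates and bars the 95% intervals of the 9 genes other than Tgfb2, and the dashed red line marks the difference of Tgfb2, -0.59. No bar of the other 9 genes reaches that line, and the bar of Tgfbi, from -0.33 to -0.04, is the only one of these that does not cross 0. The interval of Tgfb2, -0.83 to -0.36, is not drawn, since the gene was chosen by its difference. Inhba was below the dim reference.

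The pathway around these genes was read from 74 further genes listed by role, of which 70 were measured. Of these, 4 were lower, 1 was higher and 65 were not called, so that 7.14% were called beside 0.813% of all genes. The lists were written with earlier results of these data known, so these shares are a description and not a test of the pathway. Of the called genes, 3 were in the list of genes known to be induced by Tgf-beta. At an unadjusted p under 0.05, 17 of the 70 were lower and 3 higher, beside 5.14% and 4.13% of all genes. Of the 17, 11 were in the list of induced genes. The median log2 difference of the 70 was -0.017. The listed genes that were not measured were not analysed here. Among 10 further ligands 0 were called and the median log2 difference was -0.03; those with the smallest p were Mstn (ratio 0.915), Inha (0.938) and Inhbe (0.947), of which Mstn and Inhbe were below the dim reference. Among 8 further receptors and co-receptors 0 were called, the median was -0.0016, and Acvr1c, Cfc1 and Acvr2b had ratios of 0.942, 0.937 and 1.02. None of these 8 receptors had an unadjusted p under 0.05.

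Of 17 further genes of latency and extracellular control, 1 was called, beside 0.813% of all genes. Bgn encodes biglycan, a small matrix proteoglycan that binds Tgf-beta. Its log2 intensity ran from 9.61 through a median of 9.77 to 9.88 in wild type embryos and from 9.23 through 9.46 to 9.69 in mutants. All 12 mutants lay below the wild type mean and 10 lay below the lowest wild type embryo. Bgn fell by 0.28 on the log2 scale (SE 0.050, adjusted p = 0.0025, limma), a ratio of 0.823. Itgb8, an integrin subunit that releases latent Tgf-beta, and Thbs1, a matrix protein that can do so, had ratios of 0.888 and 0.929 (adjusted p = 0.371 and 0.389). The median of these 17 genes was -0.046.

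Of 17 Smads and their partners, 1 was called, beside 0.813% of all genes. Trim33, a ubiquitin ligase that binds Smads, ran from 10.63 through 10.74 to 10.90 in wild type embryos and from 10.75 through 10.88 to 10.99 in mutants. The ranges overlapped over much of their length, although all 12 mutants were above the wild type mean. Trim33 rose by 0.16 on the log2 scale (SE 0.036, adjusted p = 0.0281, limma). The call was lost with sex as a covariate (adjusted p = 0.0988), without the 3 wild type arrays of high Postn (0.195), and without any 1 of mutants 4 or 8 or wild type embryos 2, 4, 8 or 11 (0.0518 to 0.0584). Pmepa1, a feedback inhibitor of the pathway that Tgf-beta induces, had a ratio of 0.932 (adjusted p = 0.476) and lay under the wild type mean in 11 of 12 mutants. The receptor-associated Tgfbrap1 had a ratio of 1.07 (adjusted p = 0.647), and the median over the 17 genes was 0.0099.

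Of 18 genes known to be induced by Tgf-beta in various cells, 3 were lower, 0 were higher and 15 were not called, beside 0.527% of all genes lower and 0.286% higher. At an unadjusted p under 0.05, 11 were lower and 1 was higher, beside 5.14% and 4.13% of all genes. The median log2 difference was -0.20, beside -0.0049 over all genes. Tsc22d1, a leucine zipper gene, ran from 11.45 through 11.57 to 11.68 in wild type embryos and from 11.25 through 11.36 to 11.47 in mutants, and fell by 0.19 (SE 0.033, adjusted p = 0.0021, limma). Snai2, a transcriptional repressor known from cells that lose their epithelial form, ran from 10.52 through 10.71 to 10.78 in wild type embryos and from 10.05 through 10.46 to 10.57 in mutants, and fell by 0.29 (SE 0.055, adjusted p = 0.0037). For each of these genes, 10 of 12 mutants lay below the lowest wild type embryo. Timp3, an inhibitor of matrix metalloproteinases, ran from 9.66 through 9.91 to 10.19 in wild type embryos and from 9.29 through 9.66 to 9.93 in mutants, and fell by 0.37 (SE 0.075, adjusted p = 0.0091), with 6 of 12 mutants below the lowest wild type embryo. Col3a1, a fibrillar collagen, had a ratio of 0.904 and lay next to the threshold (adjusted p = 0.0526). Fn1, which encodes fibronectin, and Col1a1 had ratios of 0.906 and 0.840 (adjusted p = 0.114 and 0.187). By sign, 14 of the 18 genes were negative. The positive ones were Klf10 (ratio 1.10, adjusted p = 0.361, limma), Cdkn2b (1.05), Snai1 (1.03) and Junb (1.01), and none of them was called. The genes named here that were not called were chosen after their values were seen.

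**Figure D3:**
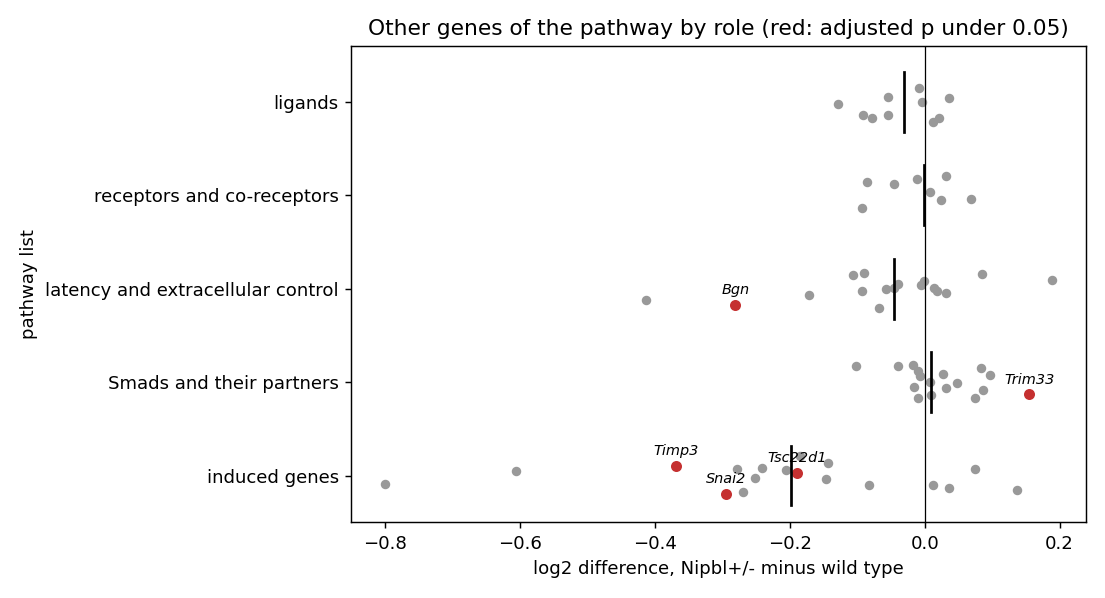
Log2 difference, Nipbl+/- minus wild type (x axis), of the 70 further measured pathway genes in 5 lists by role (y axis). Each point is 1 gene, black ticks are list medians, and red named points have an adjusted p under 0.05. The tick of the induced genes lies at -0.20 and those of the other lists lie between -0.046 and 0.0099.

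Several pathway genes varied strongly among embryos of 1 genotype. Postn, which encodes the matrix protein periostin, ran from 6.90 through a median of 7.45 to 10.58 in wild type embryos and from 6.58 through 6.94 to 8.60 in mutants, and 4 wild type embryos lay above every mutant. Acta2, smooth muscle actin, and the proteoglycan gene Dcn had SDs of 1.02 and 0.93 in wild type embryos against 0.67 and 0.26 in mutants. Wild type embryo 11 was the highest for all 3 genes, which were chosen after their values were seen, and it also had the highest Tgfb2. Without the 3 wild type arrays with a Postn log2 intensity above 9, the difference of Tgfb2 was -0.55, 0 of the 9 other genes were called, and 4 of the 70 further genes were called. Of the induced genes, 3 were then still called lower, with a median of -0.15.

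A few single markers of the cell types that a hindlimb bud holds were called, in lists whose other genes often had the other sign. These lists were also written with earlier results of these data known. Over all genes, 0.527% were called lower and 0.286% higher in mutants. At an unadjusted p under 0.05, 5.14% of all genes were lower and 4.13% higher. Of the 8 proximal genes measured, Osr1 was lower (ratio 0.712, adjusted p = 0.0302), 4 were negative by sign and 4 positive with a median log2 difference of -0.0053, and the mean log2 level of the list was 9.75 to 10.06 in wild type and 9.63 to 9.98 in mutant embryos. Of the 7 distal genes, 2 were lower, with Hoxd13 at a ratio of 0.653 (adjusted p = 0.0016), and 1 was higher, with list levels of 9.75 to 10.20 and 9.58 to 9.94. At an unadjusted p under 0.05, 3 distal genes were lower and 3 higher. By sign, 4 were negative and 3 positive, with a median of -0.064. In the ectoderm list of 11 genes, Krt5 was lower (ratio 0.806, adjusted p = 0.0017), while 2 others were higher at an unadjusted p under 0.05, 5 were negative and 6 positive by sign and the median was 0.00051, with list levels of 8.83 to 8.99 and 8.77 to 9.13. In the Schwann cell and nerve list of 5 genes, Erbb3 was higher (ratio 1.19, adjusted p = 0.0499), with list levels of 7.10 to 7.31 and 7.13 to 7.45. Of these 5, 1 was negative and 4 positive by sign, with a median of 0.051. Of 9 macrophage genes 0 were called, 9 were lower by sign and 4 had an unadjusted p under 0.05, with list levels of 6.66 to 6.93 and 6.60 to 6.82 and 6 genes above the dim reference. The lists for hindlimb, forelimb, limb mesenchyme, muscle precursors, endothelium, erythroid cells, early cartilage and somite had 0 called genes. The part of these differences in the values of Tgfb2, Tgfbi and the induced genes was not tested.

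The genes next to Tgfb2 on its chromosome did not pass the test. On the side of lower coordinates, the 5 nearest measured genes in the RefSeq order were Lyplal1, Slc30a10, 9630028B13Rik, Eprs and Bpnt1, and on the side of higher coordinates Rrp15, D1Pas1, Spata17, Gpatch2 and Esrrg. Of these 10, 0 were called, beside 0.813% of all genes, so that a count of 0 is near the share over all genes. Of the 10, 7 were above the dim reference, and their log2 differences lay between -0.15 and 0.097. Slc30a10, a metal transporter, had the lowest of these differences (ratio 0.899, adjusted p = 0.439, limma). It was the 1 neighbour of 10 with an unadjusted p under 0.05, beside 9.26% of all genes. Rrp15, a ribosome biogenesis gene, had a ratio of 1.07 (adjusted p = 0.800).

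Within a genotype, the level of Tgfb2 was set against that of each of the other 9 genes. Of these 18 relations, each over the 12 embryos of 1 genotype, 0 passed the test after adjustment by Pearson's r or Spearman's rho. The r with the greatest size was -0.53 for Tgfbr2 in wild type embryos (Spearman's rho -0.50; permutation p = 0.076 and 0.099, adjusted p = 0.768 and 0.684, two-sided), and in mutants r for this gene was -0.014. Without the 2 embryos farthest from the median of Tgfb2, r for Tgfbr2 was -0.81 in wild type and 0.77 in mutant embryos, so these values rest on few embryos. In the same way, r for Fst in mutants went from -0.26 to -0.81, and r for Tgfb3 in wild type embryos from -0.38 to -0.66. For Tgfbi, r was 0.33 (rho 0.32, permutation p = 0.303 and 0.311, adjusted p = 0.768 and 0.685) in wild type and 0.21 (rho 0.45, p = 0.515 and 0.148, adjusted p = 0.768 and 0.684) in mutant embryos, and 0.053 and 0.74 without the 2 farthest embryos.

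Among the other genes, several varied together between embryos. With genotype means taken off, Pearson's r over the 24 embryos was 0.69 for Tgfb3 and Ltbp1, 0.66 for Tgfb3 and Tgfbr2, 0.63 for Tgfbr2 and Ltbp1 and 0.62 for Tgfb3 and Tgfbi. Within genotypes, r for Tgfb3 and Ltbp1 was 0.82 in wild type and 0.61 in mutant embryos. The lowest of the 45 pairs was Tgfb1 and Inhba at -0.49. Inhba, below the dim reference, was highest on the 3 arrays of low weight, at 6.42 in wild type embryo 3 and 6.41 and 6.49 in mutant embryos 2 and 9. The embryos share arrays and their quality across genes, so these correlations are a description and carry no p. The r of greatest size of Tgfb2 with any of the other genes here was -0.27, for Tgfbr2. Values over both genotypes can hide opposite signs. For Tgfb2 and Fst, r was 0.01 over the 24 embryos, 0.37 in wild type and -0.26 in mutant embryos.

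**Figure D4:**
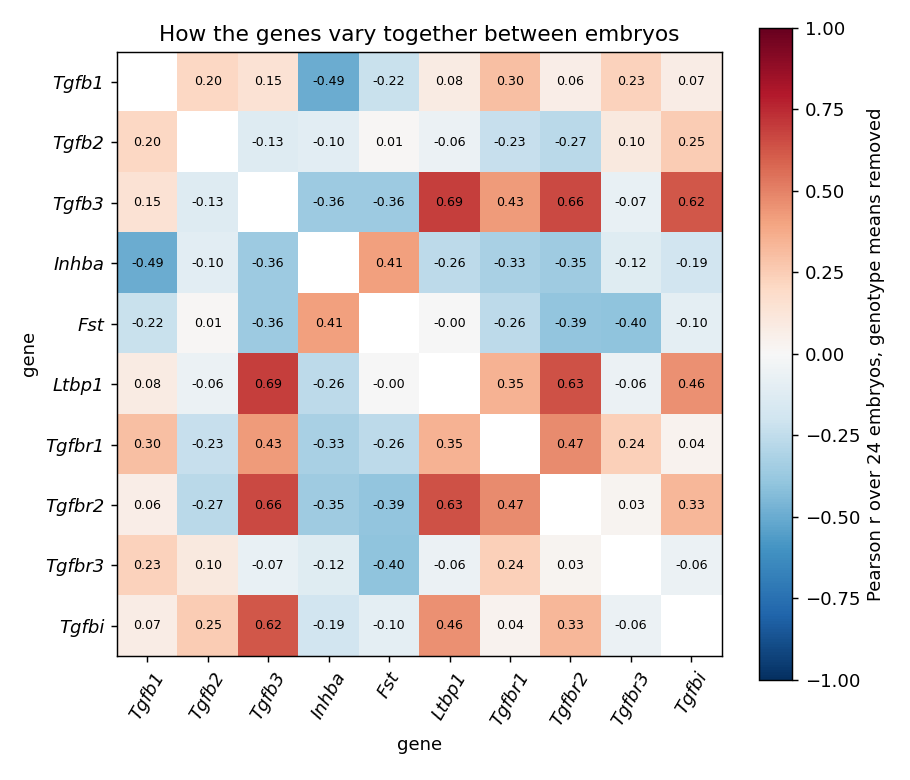
Pearson's r between each pair of the 10 genes (both axes) over 24 embryos after the mean of each genotype was taken off, with red for positive and blue for negative values on a scale from -1 to 1. The highest values, up to 0.69, are among Tgfb3, Ltbp1, Tgfbr2 and Tgfbi, and the row of Tgfb2 stays between -0.27 and 0.25. Within genotypes r can differ from these values, as for Tgfb2 and Fst (0.37 in wild type and -0.26 in mutant embryos).

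Over all measured genes, those whose levels were most like that of Tgfb2 in the same sense were Rpsa (r = 0.67), Psme3ip1 (0.66), Prkca (0.63), Nol6 (0.62), Atp5d (0.61), Hoxc6, Zfp605 and Nup62 (0.60 each), and Tmem126a and Mir144 (0.59 each). The 99th percentile of r with Tgfb2 over all genes was 0.43. The same percentile was 0.60 to 0.80 for the other 9 genes. The genes named in this paragraph were picked as the highest in a search of all genes, and whether such values exceed chance was not tested. Tgfb3 was most like Lrig3 and Cdk19 (0.92 each) and Hpgd (0.91), Ltbp1 most like Wdr6 and S1pr3 (0.89 each) and Tbx2 (0.86), and Fst most like Gal3st1 (0.90), Nkx6-2 (0.88) and Ripply1 (0.87). For Tgfbi these were Emp3 (0.86), Arhgap44 (0.83) and Stx5a (0.81), for Tgfb1 Mta3 (0.80), Errfi1 (0.79) and Mbd3 (0.78), and for Inhba Il1f5 (0.84), Cblc (0.80) and Gucy2g (0.79). For the receptors they were Slc36a4, Ifnar1 and Ahcyl2 (0.85 each) with Tgfbr1, C2cd3 (0.88), Chd8 (0.87) and Cxadr (0.85) with Tgfbr2, and Cers6 (0.83), Sos2 and Dock11 (0.80 each) with Tgfbr3. Inhba was below the dim reference and highest on the 3 arrays of low weight. Whether its values of r follow array quality was not tested.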

How the data were processed

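Hindlimb bud RNA of 12 wild type and 12 Nipbl+/- embryos (stage-matched, RRS strain) was hybridised to 1 Affymetrix Mouse Gene 1.0 ST array per embryo. The deposited values are log2 intensities, which the authors made by passing CEL data through GenePattern's Expression File Creator. The submitters' processing notes name RMA, which corrects background, normalizes quantiles between arrays and summarises probe sets (version not given in the sources used here). Quantile normalization can hide a shift common to most genes. Of 28159 probe sets, 21640 had 1 gene symbol, 1321 had several and 5198 had none listed, and 21553 matched RefSeq genes by Entrez ID. The brightest probe set was taken for 954 genes with several, which left 19937 genes. RefSeq order gave the neighbours of Tgfb2.

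Genotypes were compared with limma 3.58.1 (lmFit, eBayes) in R 4.3.3, mutant minus wild type. Adjusted p are Benjamini-Hochberg values over all 19937 genes, called under 0.05. Apart from the dim reference and the hindlimb and forelimb genes Tbx4, Pitx1 and Tbx5, levels were not compared between genes. Correlations, their 100000 permutations and the figures were made in Python 3.11.15 with matplotlib 3.10.9. The procedure was tested on simulated data. Arrays were compared with each other, and 0 were identical. Precision is limited by how many arrays there are. The text names the 10 genes, Nipbl, the called genes of each pathway list or otherwise the 3 with the smallest p, the 5 neighbours on each side, the 10 genes most like Tgfb2 and 3 for each other gene, and the leading gene of marker lists. Genes, lists and tests were chosen with earlier results of these data known. Alternatives covered probe set choice, dim genes, the variance model, array weights, sex, array medians, a t-test on linear values as an alternative scale, the replicate number as a block, and leaving out each embryo.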

Additional observations from a re-analysis of the deposited data

How the results depend on the processing

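Over 34 alternatives, 24 of which left out 1 embryo each, the log2 difference of Tgfb2 lay between -0.65 and -0.49. The median of the other 9 genes lay between -0.11 and -0.05, with 0 of these genes and 0 neighbours of Tgfb2 called in any alternative and 4 to 7 of the 70 further pathway genes called. Trim33 lost its call in the settings named with it above. The sign turned for 2 genes near 0. For Tgfbr2 the log2 difference was -0.023 with sex as a covariate, -0.00064 on linear values, -0.0039 without the 3 wild type arrays of high Postn, -0.0023 without the 3 arrays of low weight, and -0.013 to 0.015 without 1 embryo each. For Inhba it was 0.046 with sex as a covariate and -0.042 to 0.011 without 1 embryo each. The cause was not tested. The 2 settings that left out 3 arrays were chosen after seeing the data. The authors describe the wild type and Nipbl+/- embryos as littermates, and the labels do not say what the replicate number marks. The deviations of same-numbered embryos correlated at -0.35 to 0.28, over 0.1 in 5 of 12 pairs. Of the embryos, 3 wild type and 1 mutant correlated best with their own number. These values do not settle whether the number marks a pair. With the replicate number as a block, 0 of the 9 genes and 5 pathway genes were called, Trim33 was lost (adjusted p = 0.0621), and the median log2 difference of the 9 genes was -0.085 as without it. Other probe sets of the 10 genes could not be tried, since each gene had 1. The signal of Inhba, Mstn and Inhbe was below the dim reference, which limits what their differences can show.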
